A study of Mus musculus with 2 samples.

Results

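Transcripts of 8 genes of the nuclear lamina and of the bridge between nucleus and cytoskeleton were followed through marker-defined cell types of mouse bone marrow, with most weight on the steps from neutrophil progenitors to mature neutrophils. The genes were taken by symbol, 8 of the 32285 genes listed in the count tables: Lbr, Lmnb1, Lmnb2, Lmna, Sun1, Sun2, Syne1 and Syne2. Nuclear shape itself was not measured in these tables.

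The lamina is a mesh of lamin filaments under the inner nuclear membrane. Lbr, the lamin B receptor, anchors heterochromatin and B-type lamins to that membrane and also carries sterol reductase activity, and its mutation underlies the poorly segmented neutrophil nuclei of Pelger-Huët anomaly. Lmnb1 and Lmnb2 encode the B-type lamins and Lmna encodes lamins A and C, which are known for their scarcity in neutrophils. SUN proteins (Sun1, Sun2) span the inner membrane and bind nesprins (Syne1, Syne2) of the outer membrane, forming the LINC complex that connects the lamina with the cytoskeleton.

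The data were 2 droplet-based 3′ single-cell RNA libraries, 1 control (Ctrl) and 1 Map4k4-cKO (cKO), each from C57BL/6-background bone marrow of mice aged 13-14 weeks. The cKO animals were Mx1-Cre Map4k4 f/f. The study's methods write the control littermates as Mx1-Cre Map4k4-/-, and Mx1-Cre is an interferon-inducible Cre that acts in blood cells and other tissues. Poly I:C, which switches it on, is described in the methods for the Mx1-Cre Map4k4 f/f mice. Whether the controls were injected is not stated there, so this treatment may differ between the 2 libraries. By the description of the mice in the methods, both groups carried Mx1-Cre. The paper also calls the control cells of the single-cell data wildtype, so whether Cre was matched between the libraries is not settled. In both groups, 2 parts of c-Kit-enriched cells were mixed with 3 parts of red-cell-lysed marrow, so the shares of cell types are set by the mixture, and the number of animals behind each library was not stated in the sources used here. With 1 library per group there was no replicate, no test between conditions was possible, and every difference between Ctrl and cKO compares 2 libraries.

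The Ctrl library held 10220 barcodes and 71527701 UMIs (unique molecular identifiers, each standing for 1 captured transcript) and the cKO library 6872 barcodes and 64393950 UMIs. After the filters, 8795 Ctrl and 5347 cKO cells were kept, with a median of 4940 and 8783 UMIs, and 94.8% and 88.4% of them fell in 1 marker gate. Left out of the gates as mixtures of early and late granule genes were 73 Ctrl and 460 cKO cells, and 3010 barcode sequences occurred in both libraries. Map4k4 itself, the targeted gene, gave 5092 UMIs or 72.3 CPM (UMIs scaled to a total of 1000000 UMIs) in Ctrl and 4047 UMIs or 64.0 CPM in the library labelled cKO, a log2 ratio of -0.18 (95% interval -0.24 to -0.12), and a 3′ count need not lie in the deleted part of the gene, so it does not check the deletion.

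Neutrophil stages were gated on granule, cycling and late neutrophil markers, none of which was a member. HSPC-like cells carried stem and progenitor markers, GMP-like and ProNeu-like cells rising amounts of primary granule genes such as Mpo and Elane, PreNeu-like cells secondary granule genes (Ltf, Camp, Ngp) with cycling genes or remaining primary granule genes, imNeu-like cells the secondary granule genes alone, imNeu/mNeu cells secondary and late genes together, and mNeu-like cells the late genes (Retnlg, Mmp8, Il1b, Cxcr2) alone. In this order the Ctrl stages held 350, 523, 651, 1365, 921, 827 and 1350 cells, and the cKO stages 105, 150, 494, 940, 618, 870 and 1002 cells. Between 2.70% and 6.18% of the neutrophil cells lay close to any 1 threshold, within a factor of 0.8 to 1.25.

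Levels are given on 2 scales that behave differently here. CPM divides the UMIs of a gene by all UMIs of the same cells, while UMIs per cell is not scaled. Median UMIs per cell fell from 16826 in ProNeu-like to 2266.5 in mNeu-like cells of Ctrl and from 23206.5 to 5823 in cKO. The abundant pair S100a8 and S100a9 took 2.29% and 2.42% of UMIs in ProNeu-like cells and 24.4% to 34.0% from PreNeu-like cells onward. A CPM can therefore rise while the UMIs per cell of the same gene fall, and fewer captured transcripts and less RNA per cell cannot be told apart. Intervals are exact 95% Poisson intervals for levels and exact binomial intervals for ratios and shares of cells, and they cover counting error only; where a count is 0, the level of 3 UMIs is given in their place as what the depth allows. Since UMIs are summed per gene, lamin A and lamin C are 1 count, as are nesprin forms with and without the membrane-anchoring KASH domain.

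The sequences upstream of Lbr (chr1:181815335-181843046, minus strand) and Sun2 (chr15:79724070-79742536, minus strand) are shown because, of the 7 members examined, these 2 hold both a CCAAT box and a CHR-like element. Both lines give the 250 bases before the RefSeq start on GRCm38.p6, 5′ to 3′ on the strand of the gene, with the CCAAT box (CCAAT) and the CHR-like element (TTTGAA or TTCGAA, here found as its reverse complement TTCAAA) in capitals. The windows are chr1:181842402-181842651 for Lbr and chr15:79742537-79742786 for Sun2, each immediately before the RefSeq transcription start. The Lbr window lies inside the gene span given above, which comes from GENCODE and reaches further upstream than this RefSeq start.
Lbr: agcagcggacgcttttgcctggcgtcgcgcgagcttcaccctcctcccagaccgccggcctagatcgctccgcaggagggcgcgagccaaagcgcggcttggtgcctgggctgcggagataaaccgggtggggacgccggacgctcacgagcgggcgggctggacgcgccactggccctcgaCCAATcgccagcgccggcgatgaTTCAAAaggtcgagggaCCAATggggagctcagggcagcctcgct
Sun2: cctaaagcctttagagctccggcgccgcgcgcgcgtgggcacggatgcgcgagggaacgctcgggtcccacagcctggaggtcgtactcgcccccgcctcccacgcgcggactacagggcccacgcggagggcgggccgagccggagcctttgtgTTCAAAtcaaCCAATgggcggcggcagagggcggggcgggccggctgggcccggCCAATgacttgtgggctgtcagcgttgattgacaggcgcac
The CCAAT boxes of Lbr lay 68 and 28 bases before the start with the CHR-like element at 45 bases, and those of Sun2 lay at 85 and 41 bases with the CHR-like element at 95 bases. On both strands, CCAAT occurred in 33.8% of all 32851 promoter windows of this length and the CHR-like letters in 17.1%, so both are common. Sun1 (chr5:139200637-139249840, plus strand) held 2 CCAAT boxes and Syne2 (chr12:75818134-76110926, plus strand) held a PU.1-like GAGGAA, which 23.3% of windows hold. None of the 4 motifs was found for Lmnb2 (chr10:80901203-80918245, minus strand), Lmna (chr3:88480147-88509956, minus strand) or Syne1 (chr10:5020917-5551482, minus strand), and the C/EBP-like TTGCNNAA, present in 9.56% of windows, was in none of the 7. Where a gene had several windows, as Lmnb2, Lmna, Sun1 and Syne1 did, only that of the most upstream RefSeq start was read. The promoter of Lmnb1 was not examined. A match is a string of letters and was not tested as a site.

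Lbr reached its highest CPM in the neutrophil line at the end of maturation. In Ctrl it measured 221 CPM in HSPC-like, 259 in GMP-like, 236 in ProNeu-like, 454 in PreNeu-like, 347 at imNeu, 512 at imNeu/mNeu and 591 (565 to 617) at mNeu. In cKO the same stages gave 164, 184, 144, 346, 267, 400.1 and 508 (490.4 to 526) CPM. Both libraries thus had a step up at PreNeu, a dip at imNeu and the top value at mNeu.

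From ProNeu-like to mNeu-like cells Lbr was 2.5-fold higher in Ctrl (log2 1.32, 1.24 to 1.40) and 3.53-fold higher in cKO (log2 1.82, 1.74 to 1.91), while the median of all genes tested was -1.04 and -1.28 on the same log2 scale. Most of the gain came at the step from ProNeu to PreNeu, with log2 ratios of 0.94 in Ctrl and 1.27 in cKO, and the step from imNeu to mNeu added 0.77 and 0.93. In UMIs per cell the picture was different: Lbr fell from 4.04 to 1.5 in Ctrl and from 3.49 to 3.09 in cKO, with the most copies in PreNeu-like cells (4.97 and 5.77). Per cell, Lbr thus fell by less than the total UMIs did, and its CPM went up.

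**Figure D1:**
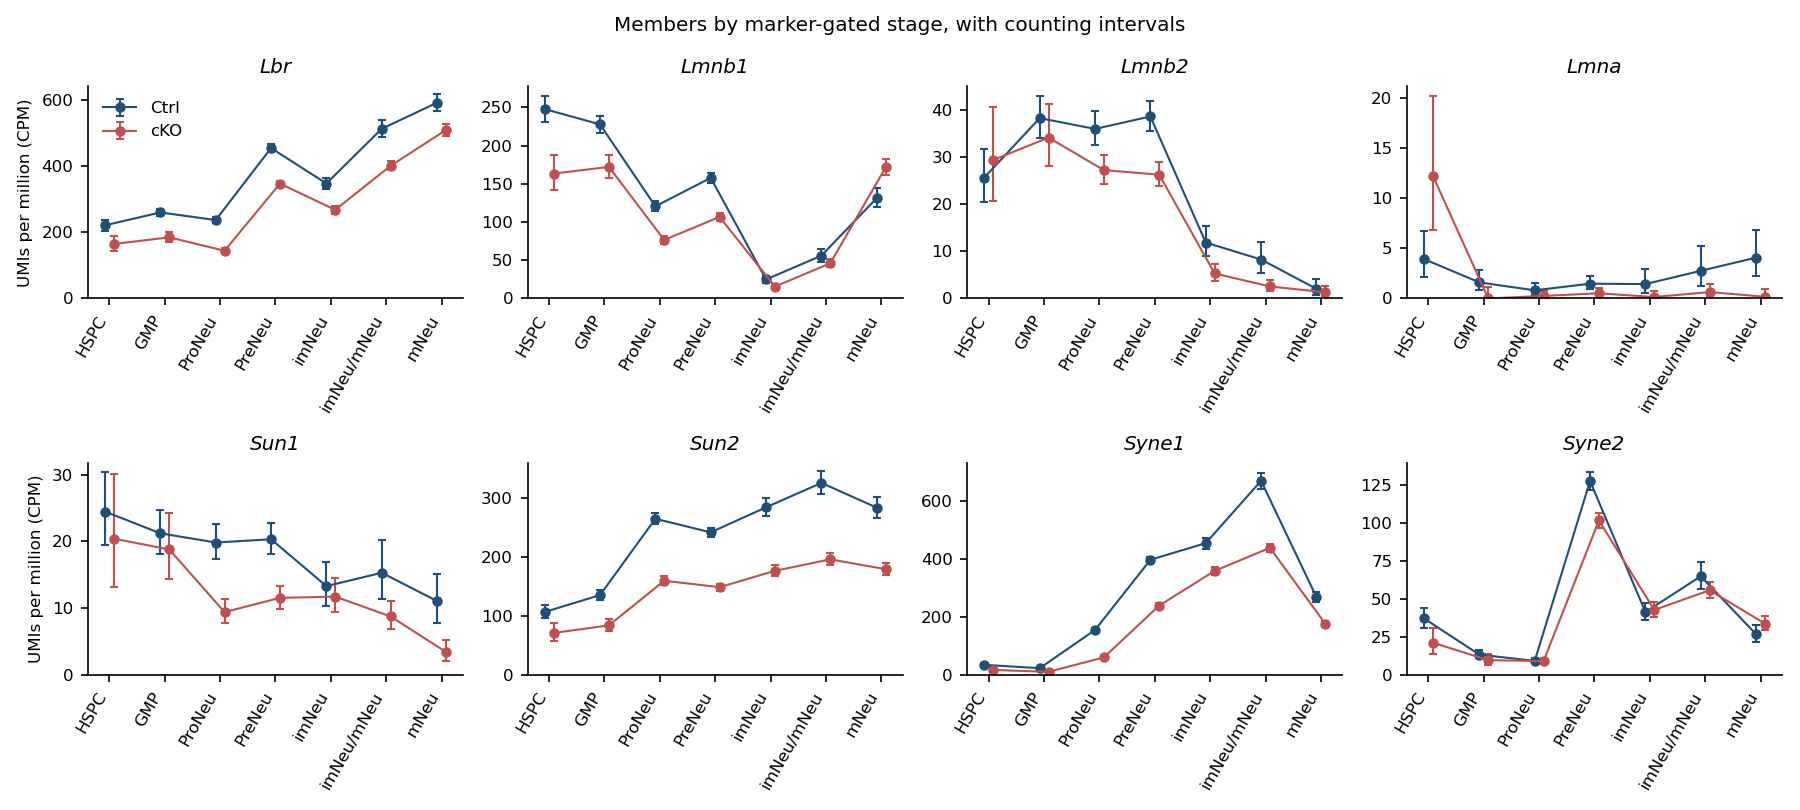
Level of each member (vertical axis, CPM) in the 7 neutrophil stages (horizontal axis) of the Ctrl and cKO libraries, with bars for the 95% Poisson interval of the summed UMIs. Lbr ends at its highest level, 591 CPM in Ctrl and 508 in cKO, Lmnb2 falls to 2.04 and 1.31 CPM, and Lmnb1 is lowest in imNeu-like cells.

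The B-type lamins parted from each other late in maturation. Lmnb1 measured 248, 228, 121, 158, 24.8, 56.0 and 131 CPM from HSPC-like to mNeu-like cells of Ctrl, and 163, 172, 76.5, 107, 15.5, 46.0 and 171 CPM in cKO. In CPM it was thus lowest in imNeu-like cells, also among the 17 Ctrl and 9 cKO cell types with at least 50 cells. On the same scale it was back at or above its ProNeu level in mNeu-like cells. The step from PreNeu to imNeu was a log2 ratio of -2.67 (-2.95 to -2.41) in Ctrl and -2.78 (-3.07 to -2.50) in cKO, and these stages are themselves separated by cycling genes.

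The rise of Lmnb1 from imNeu-like to mNeu-like cells held on both scales, but the return to its ProNeu level held in CPM only. In UMIs per cell the log2 ratio of mNeu over ProNeu was -2.63 in Ctrl and -0.83 in cKO. From imNeu-like to mNeu-like cells the log2 ratio of CPM was 2.41 (2.11 to 2.71) in Ctrl and 3.47 (3.18 to 3.76) in cKO. UMIs per cell went from 0.131 to 0.334 in Ctrl and from 0.180 to 1.04 in cKO. When each cell was thinned to 1000 UMIs, 2.61% of Ctrl imNeu-like cells (1.68% to 3.85%) and 11.6% of mNeu-like cells (9.90% to 13.4%) held an Lmnb1 UMI, and in cKO 1.29% (0.560% to 2.53%) and 17.1% (14.8% to 19.5%); without thinning the shares were 12.5% and 26.7% in Ctrl and 15.0% and 56.6% in cKO. Plasma cell-like cells, the next lowest class in Ctrl, stood at 52.7 CPM (37.5 to 72.1).

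Lmnb2 fell and did not return. It measured 25.7, 38.3, 36.0, 38.7, 11.9, 8.27 and 2.04 CPM along the Ctrl stages and 29.4, 34.2, 27.3, 26.3, 5.31, 2.54 and 1.31 CPM along the cKO stages. Only 7 Ctrl and 8 cKO UMIs were found in all mNeu-like cells, and the ratio to ProNeu-like cells was a log2 of -4.14 (-5.47 to -3.09) and -4.38 (-5.60 to -3.38). In CPM, with the main filters, gates and denominator, Lmnb2 was the only member lower by at least 2-fold in both libraries. In UMIs per cell 7 of 8 members were lower by that much in Ctrl and 3 of 7 in cKO, beside 88.6% and 82% of genes.

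Lmna was at the edge of detection in every neutrophil stage. In Ctrl it gave 3.93, 1.60, 0.808, 1.47, 1.43, 2.76 and 4.08 CPM from HSPC-like to mNeu-like cells, which rest on 13, 12, 9, 22, 7, 9 and 14 UMIs. The cKO stages held 15, 0, 3, 8, 1, 5 and 1 UMIs, and for the 0 in 150 GMP-like cells the level of 3 UMIs is 0.940 CPM. ProB-like cells of Ctrl stood at 1.5 CPM and monocyte-like cells at 3.36, so these neutrophil levels were in the range of cells of other lineages. The rise from ProNeu to mNeu in Ctrl, a log2 ratio of 2.33 (1.02 to 3.72), compares 14 with 9 UMIs, and no rise was seen in cKO, with 1 and 3 UMIs. Between the same stages the erythroid marker genes Aqp1 and Epor went from 4.31 to 15.1 CPM and from 0.539 to 4.08 CPM in Ctrl. In cKO they went from 0.417 to 0.819 CPM and from 0.0833 to 0.328 CPM. These levels, like those of Lmna there, rest on fewer than the 20 UMIs asked of a ratio, so no direction can be read. Both genes were named for their correlation with Lmna over these same profiles, so a likeness to it was selected for. The part of such erythroid transcripts in the Lmna level was not tested.

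Of the SUN genes, Sun2 was higher from ProNeu onward than in the other Ctrl cell types, and Sun1 was lowest at mNeu. Sun2 measured 107, 135, 265, 242, 284, 326 and 284 CPM along the Ctrl stages, and 71.1, 84.0, 159.7, 149, 176, 196 and 179 CPM along the cKO stages. The change lay at the step from GMP to ProNeu, with log2 ratios of 0.97 (0.86 to 1.07) in Ctrl and 0.93 (0.74 to 1.12) in cKO, after which the CPM stayed within a narrow band: mNeu over ProNeu was 0.10 (-0.01 to 0.20) and 0.17 (0.06 to 0.27). In UMIs per cell Sun2 rose from 1.94 to 4.53 in Ctrl between GMP-like and ProNeu-like cells and fell to 0.721 in mNeu-like cells.

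Sun1 drifted down. It gave 24.5, 21.2, 19.8, 20.3, 13.3, 15.3 and 11.1 CPM in Ctrl and 20.4, 18.8, 9.42, 11.6, 11.7, 8.76 and 3.44 CPM in cKO. Its mNeu over ProNeu log2 ratio was -0.84 (-1.38 to -0.34) in Ctrl and -1.45 (-2.20 to -0.77) in cKO, in both cases near the median of all genes, which was -1.04 and -1.28.

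Of the nesprin genes, Syne1 changed most at the step from GMP to ProNeu and Syne2 at that from ProNeu to PreNeu. Syne1, which encodes nesprin-1, measured 34.8, 23.2, 155, 397, 454, 669 and 268 CPM along the Ctrl stages and 17.2, 10.7, 60.5, 239, 358, 438 and 176 CPM along the cKO stages. It was 6.67-fold higher in ProNeu-like than in GMP-like cells of Ctrl (log2 2.74, 2.51 to 2.97) and 5.68-fold in cKO (log2 2.51, 2.01 to 3.05), rose again by 1.36 and 1.98 log2 units at PreNeu, and was highest in imNeu/mNeu cells. In UMIs per cell Ctrl went from 0.333 in GMP-like to 2.65 in ProNeu-like and 4.35 in PreNeu-like cells, so the rise up to PreNeu is also one of copies per cell. The top in imNeu/mNeu cells holds in CPM only. Per cell, Ctrl changed by -0.85 log2 units from PreNeu to imNeu and by 0.13 from there to imNeu/mNeu. In cKO the level per cell was highest in imNeu-like cells (2565 UMIs in 618 cells against 3448 in 870 imNeu/mNeu cells).

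At the last step Syne1 dropped again, by 1.32 log2 units from imNeu/mNeu to mNeu-like cells in Ctrl and 1.31 in cKO. Monocyte-like cells, the sister lineage from GMP, held 8.89 CPM in Ctrl and 6.70 in cKO. Syne1 UMIs were seen in 6.14% of Ctrl monocyte-like cells (median 6911 UMIs) against 85.6% of PreNeu-like cells (median 10213 UMIs); thinned to 1000 UMIs the shares were 0.945% and 30.5%.

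Syne2, which encodes nesprin-2, had a narrow peak. It measured 37.2, 13.3, 9.25, 128, 41.4, 64.9 and 26.8 CPM along the Ctrl stages and 21.2, 9.72, 9.09, 102, 42.8, 55.8 and 33.8 CPM along the cKO stages. PreNeu over ProNeu was 13.8-fold in Ctrl (log2 3.79, 3.5 to 4.09) and 11.2-fold in cKO (log2 3.48, 3.2 to 3.78). Over all other gated cells, with both libraries summed, the log2 fold of Syne2 in PreNeu-like cells was 2.02. From PreNeu to imNeu it fell by 1.63 and 1.25 log2 units, and these stages are themselves separated by cycling genes. PreNeu-like cells called cycling, as defined below, held 139 CPM of Syne2 in Ctrl and 108 in cKO. The other PreNeu-like cells held 47.6 and 53.9 CPM. With cycling called after thinning to 1000 UMIs, these other cells held 74.3 and 67.3 CPM. The part of cycling in the Syne2 peak was not tested.

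Counted over the members, 3 of 8 in Ctrl (Lbr, Lmna, Syne2) were at least 2-fold higher in CPM in mNeu-like than in ProNeu-like cells, beside 17.6% of 10875 genes tested, and 1 of 8 (Lmnb2) was at least 2-fold lower, beside 50.8%. The place of Lmna among the 3 rests on 14 and 9 UMIs. The erythroid genes Aqp1 and Epor, named for their likeness to Lmna, also rose in Ctrl. In cKO these genes and Lmna had too few UMIs in the 2 stages to compare their directions. In cKO, 4 of the 7 members with at least 20 UMIs in the 2 sums were higher (Lbr, Lmnb1, Syne1, Syne2), beside 18% of genes, and 2 of 7 were lower (Lmnb2, Sun1), beside 54.3%. The median log2 ratio of the members was 0.46 in Ctrl and 1.16 in cKO. In UMIs per cell no member was 2-fold higher in either library, beside 3.85% of genes in Ctrl and 6.04% in cKO. On that scale 7 of 8 were 2-fold lower in Ctrl, beside 88.6% of genes, and 3 of 7 in cKO, beside 82%. With median-of-ratios scaling in place of total UMIs, 6 of 8 were 2-fold higher in Ctrl (31.4% of genes) and 5 of 7 in cKO (33.5%), and 1 was lower in each (32.4% and 38%).

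Ordering the neutrophil cells by granule and late genes alone, without cycling genes and in 10 equal groups per library, showed the sequence at finer steps. The order used gated cells and the granule and late genes of the gates, so a likeness to the stages is built in. Lbr had its lowest CPM in the first of these groups (228 in Ctrl, 139 in cKO) and its highest in the last (594 and 519). Lmnb1 was lowest in group 6 of both libraries, at 40.5 and 28.9 CPM, and ended at 131 and 209 CPM. The cycling genes took 0.04% of UMIs in the last group of Ctrl and 0.01% in that of cKO, so its cells were at the low end for cycling transcripts while Lmnb1 was up again.

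Along the same order and in CPM, Syne2 peaked first, in group 4 of Ctrl (144 CPM) and group 3 of cKO (104 CPM). Syne1 followed, in group 7 of Ctrl (734 CPM) and group 6 of cKO (456 CPM). In UMIs per cell the order was reversed in Ctrl, with Syne1 highest in group 2 (4.50) and Syne2 in group 4 (1.34). In cKO it held, with Syne2 highest in group 3 (1.90) and Syne1 in group 5 (4.55). Lmnb2 fell from 36.8 CPM in group 4 to 1.46 in group 9 of Ctrl. The groups were cut within each library, so the same group number need not be the same maturity in both.

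**Figure D2:**
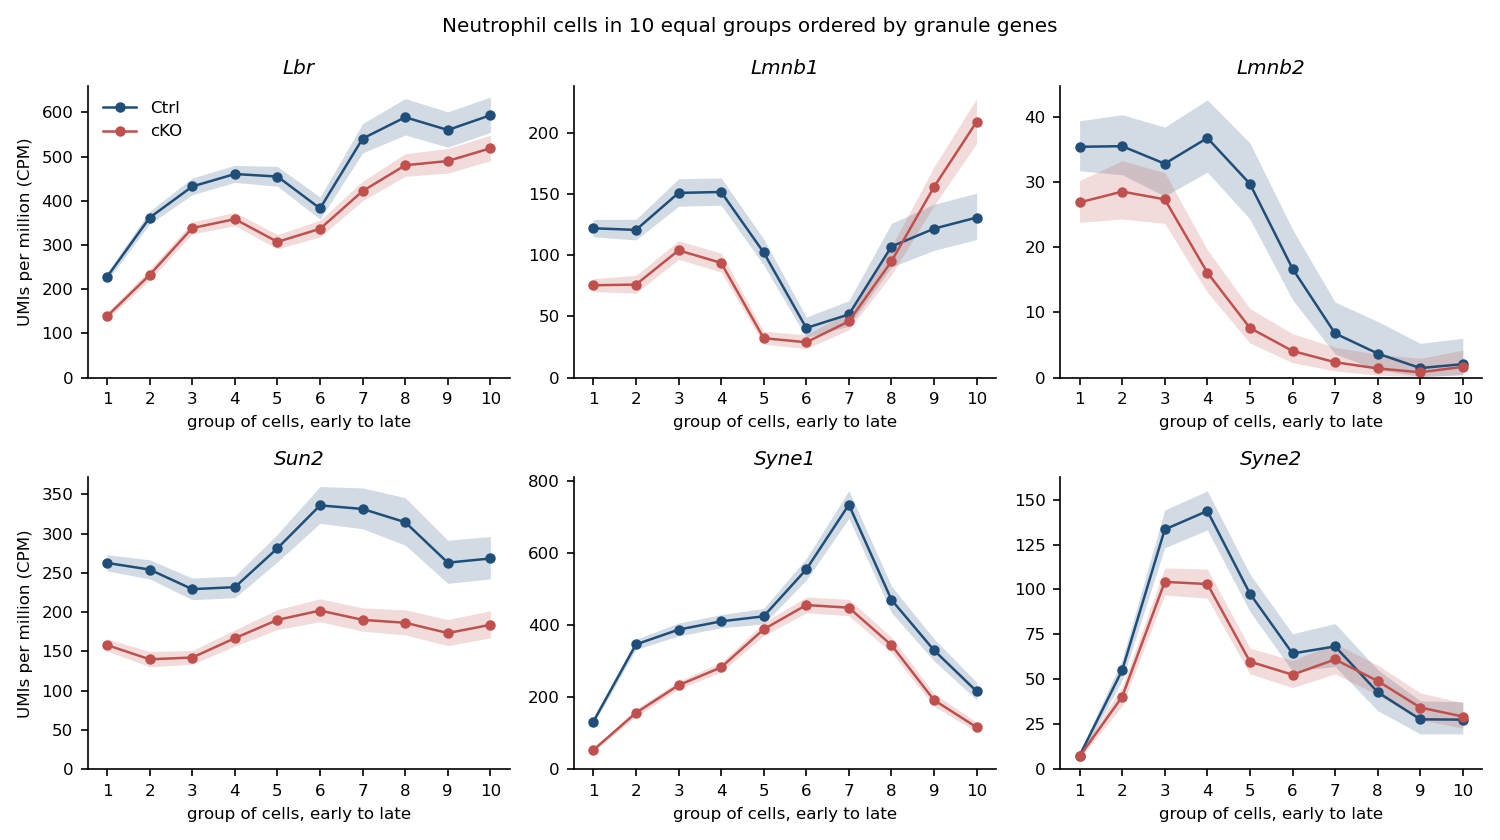
Level of 6 members (vertical axis, CPM) in 10 equal groups of neutrophil cells per library, ordered by granule genes from early to late (horizontal axis); bands are 95% Poisson intervals. Lbr climbs to 594 CPM in Ctrl and 519 in cKO, Lmnb1 dips to 40.5 and 28.9 CPM in group 6 and comes back, and Syne2 peaks before Syne1 in CPM. In UMIs per cell the last order is reversed in Ctrl.

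Within mNeu-like cells, those with more Il1b than Mmp8 UMIs (214 Ctrl and 122 cKO cells) were set beside those with more Mmp8 than Il1b (1026 and 856 cells), a division chosen after the data were seen. Mmp8 encodes neutrophil collagenase and Il1b the cytokine interleukin-1β. Syne1 was much lower in the Il1b cells, at 59.8 CPM (38.3 to 89.0) against 309 (289 to 330) in Ctrl and 38.0 (23.5 to 58.1) against 192 (181 to 204) in cKO.

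Syne2 differed in the same direction, 7.48 against 29.6 CPM in Ctrl, on 3 UMIs, and 16.3 against 35.8 in cKO, on 9 UMIs. In CPM, Lmnb1 was higher in the Il1b cells, at 179 (140.4 to 226) against 122 (109.9 to 136) in Ctrl. In cKO it was 203 (167 to 244) against 167 (157 to 179), where the intervals overlap. Per cell it was not higher: 72 UMIs in 214 cells against 347 in 1026 in Ctrl, and 112 in 122 against 916 in 856 in cKO. Median UMIs were lower in the Il1b cells, 1816.5 against 2538.5 in Ctrl and 4770 against 6189.5 in cKO. Lbr did not separate the subsets in Ctrl (558 against 591 CPM, overlapping intervals), and Lmnb2 had 0 UMIs in the Il1b cells, where 3 UMIs would be 7.48 CPM in Ctrl and 5.43 in cKO.

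Across all Ctrl cell types the leading class differed between members, and some members shared one. In Ctrl, haemoglobin-rich erythroid-like cells had 628 CPM (563 to 698) of Lbr, overlapping the mNeu-like level, followed by imNeu/mNeu (512), monocyte-like (475) and ProB-like cells (457); plasma cell-like cells were lowest with 107. Lmna was an erythroid and megakaryocyte transcript: 195 CPM (159 to 235) in haemoglobin-rich erythroid-like, 142 (134 to 151) in erythroid progenitor-like and 36.5 (25.3 to 51.0) in megakaryocyte-like cells, with every other class of at least 50 cells at 9.46 or lower. In cKO the erythroid progenitor-like cells held 176 CPM (160.3 to 192).

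Lmnb1 led in ProB-like cells with 549 CPM (517 to 583), clear of monocyte-like cells with 319 (304 to 335). Sun2 and Syne1 ranked highest in the neutrophil line, Sun2 in imNeu/mNeu cells and lowest in erythroid progenitor-like cells (32.5 CPM), and Syne1 with 669 CPM in imNeu/mNeu cells against 258 (221 to 300.2) in basophil and mast-like cells, the highest class outside neutrophils.

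Sun1 ran the other way, highest in erythroid progenitor-like (50.5 CPM) and monocyte-like cells (48.6), whose intervals overlap, and lowest in mNeu-like cells (11.1). Syne2 was highest in plasmacytoid dendritic (pDC)-like cells with 134 CPM (103 to 169.9), overlapping PreNeu-like cells with 128. For Lmnb2, PreNeu-like, GMP-like, basophil and mast-like and ProNeu-like cells lay between 36.0 and 38.7 CPM with overlapping intervals, and the 92 haemoglobin-rich erythroid-like cells had 0 UMIs, where 3 UMIs would be 5.51 CPM.

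**Figure D3:**
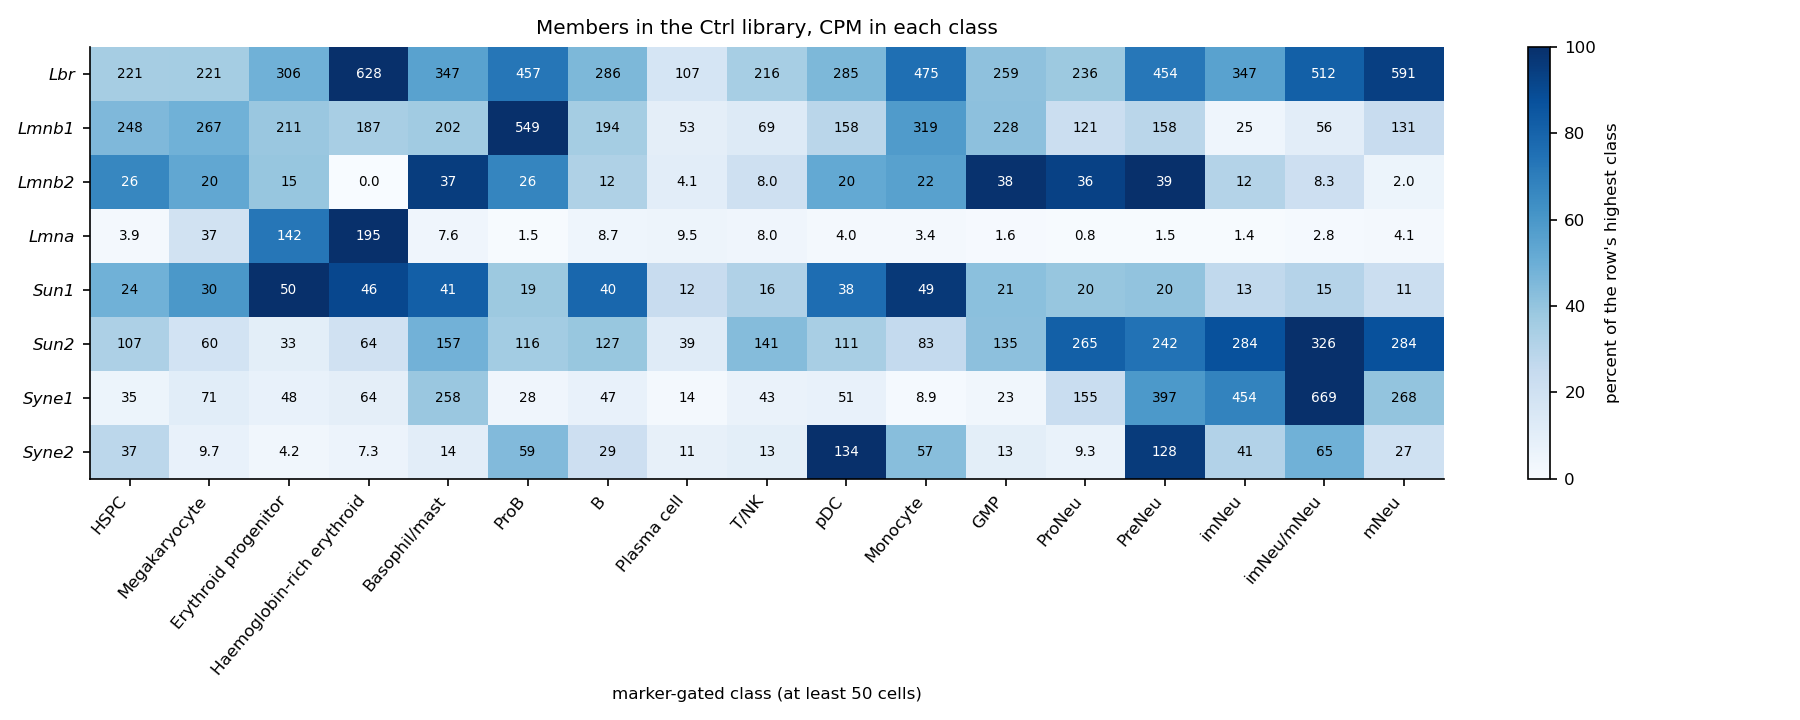
Members (rows) by the 17 cell types of the Ctrl library with at least 50 cells (columns); the number in each field is the CPM and the colour gives it as a percent of the highest value of that gene. Lmna stands out in the erythroid and megakaryocyte columns (195, 142 and 36.5 CPM), Syne1 and Sun2 in the late neutrophil stages, and Lmnb1 in ProB-like cells (549 CPM).

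Within HSPC-, monocyte-, ProB- and PreNeu-like cells, transcripts of the B-type lamins were higher in cycling cells. Cells with at least 0.3% of their UMIs in the fixed cycling genes were compared with the other cells of the same type. For Lmnb1 the log2 ratio of cycling over other cells was 2.07 (1.88 to 2.27) in Ctrl monocyte-like cells (478 against 114 CPM, 261 and 374 cells), 2.70 (2.41 to 3.00) in cKO monocyte-like cells and 2.51 (2.19 to 2.84) in Ctrl ProB-like cells. HSPC-like cells of Ctrl gave 1.14 (0.93 to 1.36) for Lmnb1 and 1.12 (0.45 to 1.83) for Lmnb2.

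In PreNeu-like cells the Lmnb1 ratio was smaller, 1.22 (0.97 to 1.47) in Ctrl and 0.96 (0.67 to 1.25) in cKO. This stage is itself gated on at least 0.15% cycling genes or on remaining primary granule genes. Its cells under 0.3% can therefore still carry cycling genes, and the size of its ratio cannot be compared with that of types gated without cycling genes. Lmnb2 gave 2.17 (1.39 to 3.03) in monocyte-like and 1.02 (0.55 to 1.53) in PreNeu-like cells of Ctrl. In GMP-, ProNeu- and erythroid progenitor-like cells the difference, without thinning, was smaller or its interval included 0. Lmnb1 gave 0.40 in both GMP-like and ProNeu-like cells of Ctrl and 0.55 (0.28 to 0.82) in GMP-like cells of cKO. Lmnb2 gave 0.28 (-0.09 to 0.66) in GMP-like, 0.14 (-0.16 to 0.44) in ProNeu-like and -0.04 (-0.94 to 1.01) in erythroid progenitor-like cells of Ctrl, and -0.07 (-0.65 to 0.52) in GMP-like cells of cKO. In ProNeu-like cells of cKO Lmnb2 gave 0.49 (0.17 to 0.82), near its 0.52 (0.02 to 1.06) in PreNeu-like cells. Once cycling was called after thinning, Lmnb1 gave 0.62 (0.35 to 0.89) in erythroid progenitor-like cells of Ctrl. PreNeu-like cells then gave 0.67 in Ctrl and 0.52 in cKO, so they are not clearly set apart from these types. Lmna was lower in cycling than in other PreNeu-like cells of Ctrl, at -1.67 (-3.05 to -0.13), on few UMIs. With cycling called after thinning to 1000 UMIs this was -0.96 (-2.39 to 0.68), an interval that includes 0. In erythroid progenitor-like cells of Ctrl Lmna was higher in cycling cells, at 1.70 (1.2 to 2.24), and at 0.80 (0.46 to 1.15) after thinning. For Syne2 the ratio was 1.55 in PreNeu-like and 1.85 in monocyte-like cells of Ctrl, while in ProB-like cells it was -0.15 (-0.71 to 0.43). With cycling called after thinning to 1000 UMIs, the Syne2 ratio in PreNeu-like cells was 0.89 in Ctrl and 0.68 in cKO, and in monocyte-like cells 1.63 and 1.92.

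In HSPC-, monocyte-, ProB- and PreNeu-like cells Lbr gave smaller ratios than Lmnb1: 0.46 in Ctrl HSPC-like cells, 0.74 in Ctrl and 1.06 in cKO monocyte-like cells, 1.19 in ProB-like cells, and 0.35 and 0.28 in PreNeu-like cells. In erythroid progenitor-like cells of Ctrl the order was the other way, with 0.88 (0.62 to 1.16) for Lbr and 0.52 (0.23 to 0.81) for Lmnb1. With cycling called after thinning, the Lmnb1 ratio in PreNeu-like cells was 0.67 in Ctrl and 0.52 in cKO, and that in monocyte-like cells was 2.01 and 2.64.

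Other genes of the nuclear envelope were counted in the same way between ProNeu-like and mNeu-like cells. Over all genes, 17.6% were at least 2-fold higher and 50.8% lower in Ctrl, and 18% higher and 54.3% lower in cKO, and the lists that follow are to be read beside these shares. Of 14 envelope partners, 1 was higher and 5 lower in Ctrl, and 1 higher and 4 lower in cKO, with median log2 ratios of -0.52 and -0.80 beside -1.04 and -1.28 over all genes. Tmem43, an inner membrane protein, rose from 44.5 to 94.9 CPM in Ctrl and from 35.3 to 74.4 in cKO. Tor1aip1, a lamina-associated membrane protein, went from 94.7 to 137 and from 64.2 to 123. Banf1, which bridges chromatin and LEM-domain proteins, fell from 298 to 30.6 and from 345 to 11, and Tmem201 from 10.1 to 1.16 and from 8.92 to 0.164, the last on 1 UMI.

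Of the 6 genes listed for lamin prenylation and processing, 0 were higher and 3 lower in Ctrl. In cKO 1 was higher (Narf, which is not itself such an enzyme) and 4 were lower. This stood beside 50.8% and 54.3% of all genes lower, and the list medians were -0.93 and -1.60. Zmpste24, the protease that matures prelamin A, had its own peak: from ProNeu-like to mNeu-like cells it measured 50.8, 202, 439, 142 and 16.0 CPM in Ctrl and 39.0, 171, 422, 136 and 9.01 in cKO. It was thus high in the stage where Lmnb1 was lowest, in cells with 7 Ctrl and 1 cKO UMIs of Lmna. Rce1 fell from 17.7 to 4.95 CPM in Ctrl and from 22.8 to 4.10 in cKO, whereas Narf went up from 24.1 to 43.1 and from 19.5 to 51.6, and Icmt stayed near its level (9.34 to 7.57, and 8.17 to 8.36).

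Lbr shares its sterol reductase reaction with Tm7sf2, and Tm7sf2 ran in the opposite direction, from 5.93 to 0.582 CPM (2 UMIs) in Ctrl and from 7.67 to 1.64 in cKO. Of the 9 enzymes after lanosterol, 6 were at least 2-fold lower in Ctrl and 5 in cKO, beside 50.8% and 54.3% of all genes, and 1 was higher in each: Msmo1, from 15.4 to 42.8 and from 22.1 to 49.3 CPM. The medians of this list were -2.21 and -1.49. Dhcr7, a later reductase of the route, fell from 11.1 to 2.04 and from 12.1 to 0.656 CPM, and Sc5d measured 24.2 and 28.2 CPM in Ctrl and 22.9 and 31.5 in cKO.

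The HP1 proteins, heterochromatin readers that bind LBR, all fell by at least 2-fold, 3 of 3 in both libraries: Cbx5 from 178 to 18.6 CPM in Ctrl and from 107 to 3.61 in cKO, Cbx1 from 123 to 25.9 and from 103 to 19.8, and Cbx3 from 198 to 48.3 and from 159.0 to 24.9. Nuclear pore genes fell nearly throughout, 26 of 28 in each library by at least 2-fold, with medians of -2.26 and -2.66 log2 units. Nup98 (34.7 to 26.5 CPM in Ctrl, 27.9 to 29.0 in cKO) and Ahctf1 (39.7 to 23.9, and 23.5 to 21.6) were at the top of this list, and Nup43 (26.8 to 0.582, and 21.4 to 0.492) and Nup37 (32.1 to 3.2, and 35.5 to 0.328) at its bottom.

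Of 3 nuclear RNAs, Neat1 went from 96.5 to 763 CPM in Ctrl and from 67.3 to 434 in cKO, Malat1 from 3885 to 3442 and from 2066 to 2583, and Kcnq1ot1 from 266 to 12.2 and from 134 to 2.13. The rise in Lbr CPM thus stood beside a fall in transcripts of the HP1 proteins that bind it and of most pore genes, in a comparison where 50.8% of all genes in Ctrl and 54.3% in cKO were lower by at least 2-fold.

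**Figure D4:**
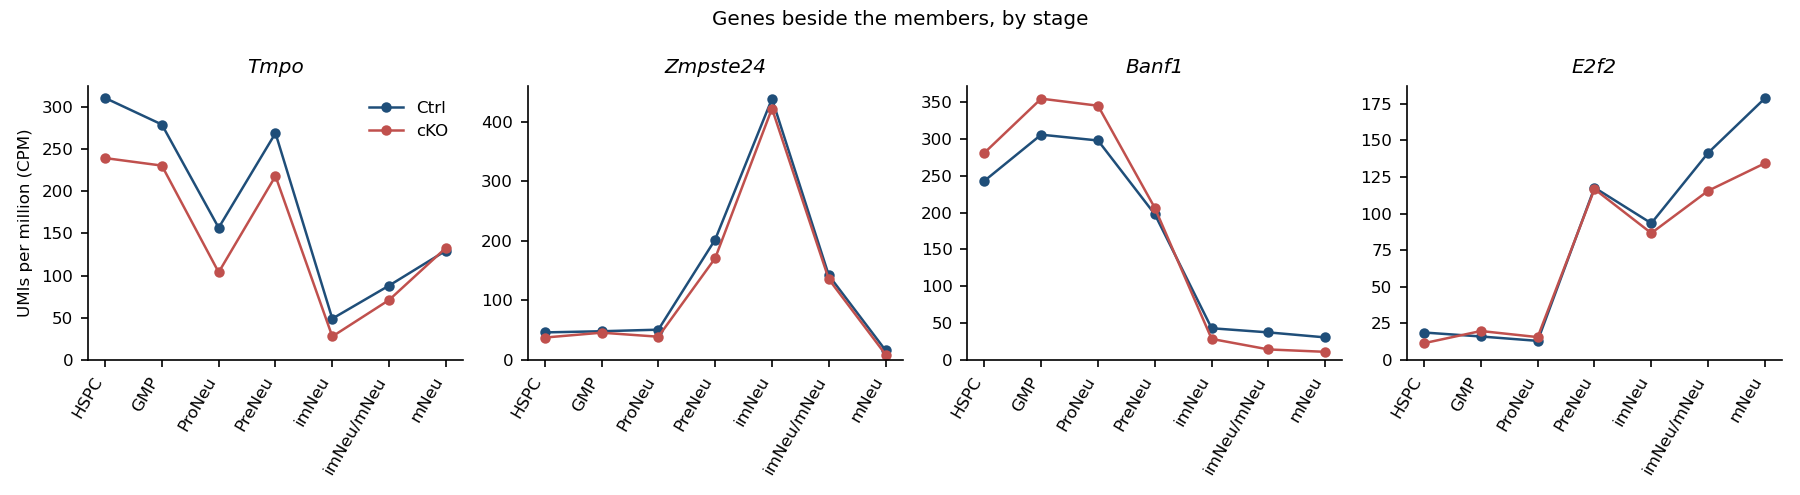
Level (vertical axis, CPM) of 4 genes beside the members in the 7 neutrophil stages (horizontal axis) of both libraries. Tmpo dips in imNeu-like cells as Lmnb1 does, Zmpste24 peaks there at 439 CPM in Ctrl and 422 in cKO, Banf1 falls to 30.6 and 11 CPM, and E2f2 ends at 179 and 134 CPM.

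The genes most like each member were looked up across 26 profiles, 1 for each cell type with at least 50 cells in each library, by Pearson's r of log2(CPM + 10) over 6677 genes. Profiles from 1 library share its depth and preparation, and neighbouring stages share cells near the thresholds, so r is a description. Tmpo, which encodes lamina-associated polypeptide 2, was most like Lmnb1 (r = 0.94), ahead of the histone gene Hist2h2aa1 (0.86) and the phosphatase subunit gene Ppp1cc (0.85). At ProNeu, PreNeu, imNeu and mNeu, Tmpo measured 157, 269, 48.9 and 129.6 CPM in Ctrl and 104, 218, 27.8 and 133 in cKO.

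Most like Lbr were E2f2, a cell cycle transcription factor (r = 0.85), Mtmr3 (0.84) and Ccnd3, which encodes cyclin D3 (0.84). E2f2 went from 13.0 CPM in ProNeu-like to 179 in mNeu-like cells of Ctrl and from 15.6 to 134 in cKO. Lmna lay nearest to the erythroid genes Aqp1 (0.97), Sec14l2 (0.97) and Epor (0.97), of which Aqp1 and Epor were markers of the erythroid gate.

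Syne1 lay nearest to the transcription factor gene Klf5 (0.92), to Alox5, which encodes 5-lipoxygenase (0.89), and to 4930438A08Rik (0.89). Syne2 was most like Gas7, Arhgap27 and Gm34680 (0.82, 0.81 and 0.78). Sun2 was most like Ccdc125, the glycogen branching enzyme gene Gbe1 and Arhgap4 (0.89, 0.87 and 0.86), Sun1 most like Vps35, Nhlrc2 and Aida (0.87, 0.86 and 0.86), and Lmnb2 most like Sptssa, Ccdc115 and Slc35b2 (0.93, 0.89 and 0.89). Between members the highest r was 0.76, for Sun2 and Syne1.

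Set side by side, the libraries differed in most members at most stages, with lower CPM in cKO. These ratios need the general shift as a yardstick, since the median log2 ratio of cKO over Ctrl over all genes tested was -0.11 in HSPC-like, -0.15 in GMP-like, -0.27 in ProNeu-like, -0.38 in PreNeu-like, -0.41 in imNeu-like, -0.49 in imNeu/mNeu and -0.45 in the mNeu-like stage. Beside it, S100a8 and S100a9 took 24.8% of UMIs in mNeu-like cells of Ctrl and 30.9% in cKO, the median UMIs per cell were 2266.5 and 5823, and the nuclear RNA Malat1 was lower in cKO at each stage, for example 3885 against 2066 CPM in ProNeu-like cells. The part of these differences between the libraries in the ratios was not tested.

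Members at least 1.5-fold lower in cKO were 4 of 8 in HSPC-like cells (15.8% of all genes tested), 2 of 7 in GMP-like (13.1%), 5 of 7 in ProNeu-like (20.4%), 4 of 8 in PreNeu-like (29.7%), 3 of 7 in imNeu-like (35%), 4 of 7 in imNeu/mNeu (42.1%) and 3 of 6 in mNeu-like cells (39.4%). The only member at least 1.5-fold higher was Lmna in HSPC-like cells, 1 of 8 beside 7.35% of genes. Relative to the all-gene median, 6 of 8, 7 of 7, 6 of 7 and 7 of 8 members lay below it from HSPC-like to PreNeu-like cells, and 3 of 7, 4 of 7 and 3 of 6 in the later stages. With median-of-ratios scaling, 9 pairs of member and stage were lower by 1.5-fold, against 25 with total UMIs. The share over all genes was not counted under that scaling, so the 9 pairs cannot be set beside it.

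In CPM, Sun2 was lower in cKO by nearly the same ratio in all 7 neutrophil stages. Its log2 ratios ran from -0.59 in HSPC-like to -0.73 in imNeu/mNeu cells, with -0.66 at mNeu. Relative to the all-gene median of each stage it ran from -0.53 in GMP-like to -0.21 in mNeu-like cells. Syne1 was lower by 1.02 log2 units in HSPC-like, 1.12 in GMP-like and 1.36 (1.23 to 1.48) in ProNeu-like cells, and by 0.34 to 0.73 from PreNeu onward. Lbr ran from -0.72 (-0.81 to -0.63) at ProNeu, below the shift of that stage, to -0.22 (-0.30 to -0.14) at mNeu, above it. Sun1 was -1.08 (-1.42 to -0.74) at ProNeu and -1.68 (-2.53 to -0.88) at mNeu, the latter on 21 and 38 UMIs. All of these are ratios of CPM. In UMIs per cell the Sun2 ratio lay between -0.28 and -0.09 up to PreNeu. From imNeu onward it was 0.44, 0.46 and 0.60. On that scale Lbr and Syne1 were also higher in cKO from imNeu onward (1.04 and 0.65 at mNeu), and Sun1 was lower at mNeu (-0.43).

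In CPM, Lmnb1 changed sign at the last stage. It was lower in cKO in every stage from HSPC-like (-0.60, -0.83 to -0.38) to imNeu/mNeu cells (-0.29, -0.55 to -0.02) and higher in mNeu-like cells, 171 against 131 CPM, a log2 ratio of 0.38 (0.22 to 0.55) or 0.84 above the median of all genes. Under median-of-ratios scaling the change of sign came 1 stage earlier, with 0.20 in imNeu/mNeu cells. In UMIs per cell Lmnb1 was lower in cKO only in HSPC-like (-0.30) and ProNeu-like cells (-0.15). On that scale it was 0.17 in GMP-like cells, and 0.04, 0.45, 0.91 and 1.64 from PreNeu to mNeu. Syne2 in mNeu-like cells was 33.8 against 26.8 CPM, 0.33 (-0.03 to 0.70), an interval that includes 0. Lmna in HSPC-like cells, 12.3 against 3.93 CPM, rests on 15 UMIs in 4 of 105 cKO cells and 13 UMIs in Ctrl, with a log2 ratio of 1.64 (0.47 to 2.83).

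**Figure D5:**
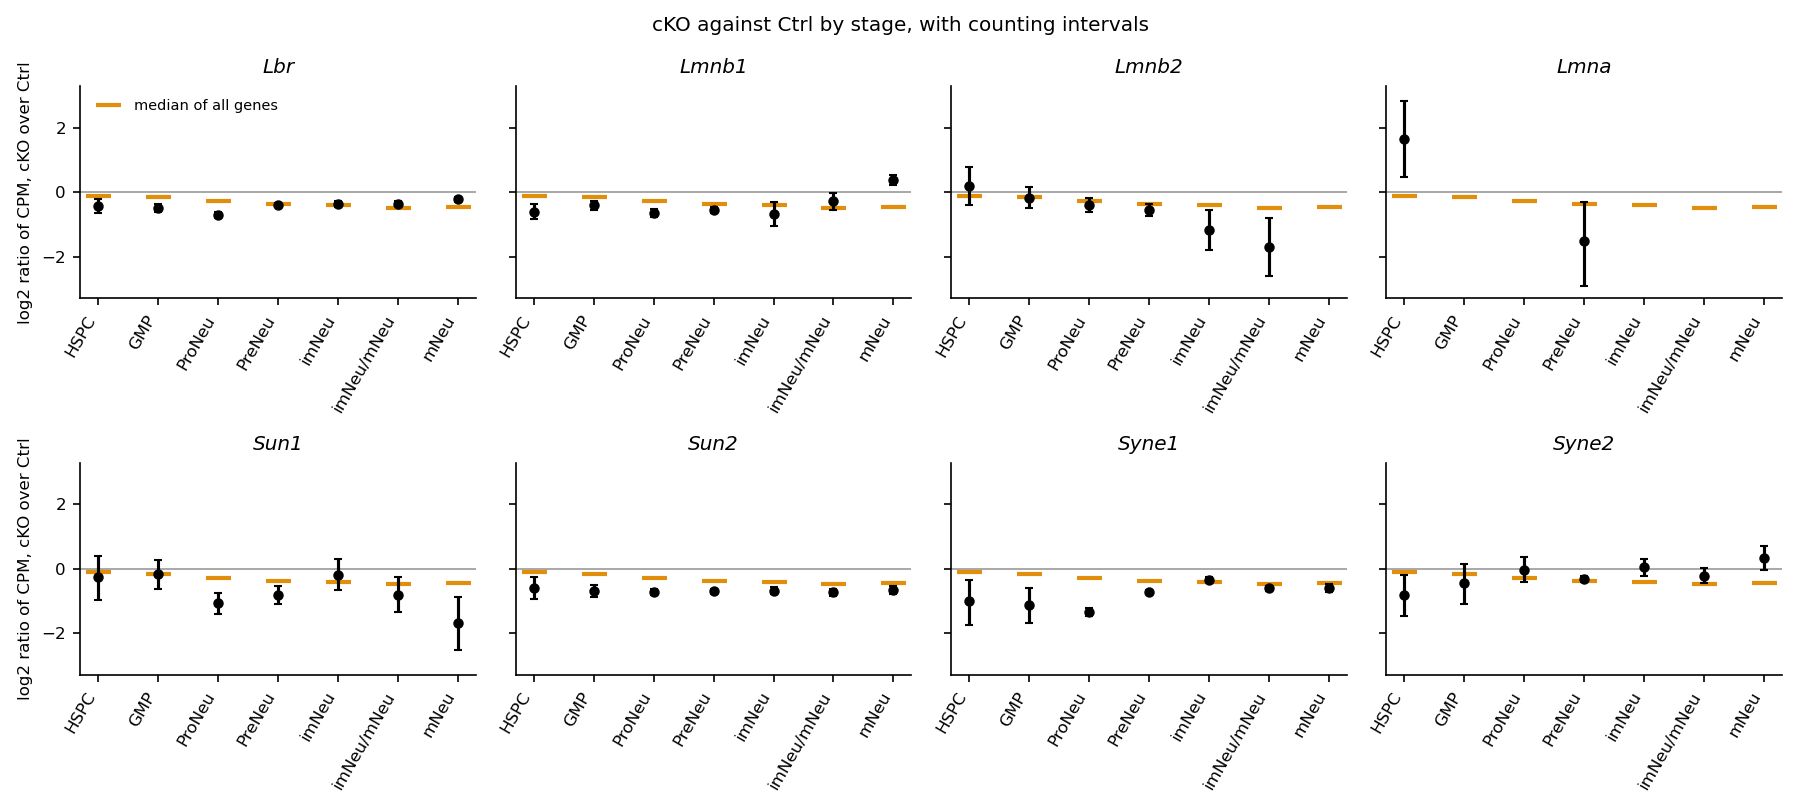
Log2 ratio of CPM, cKO over Ctrl (vertical axis), for each member with at least 20 UMIs in the 2 sums, by neutrophil stage (horizontal axis), with 95% exact binomial intervals; orange bars mark the median over all genes tested and the grey line marks 0. Most points lie below 0, Sun2 stays between -0.73 and -0.59, and Lmnb1 in mNeu-like cells stands at 0.38 against a median of -0.45.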

How the data were processed

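Each library was 1 sample of 3′ single-cell RNA (DG1000 kit). The deposited values were unnormalized counts, 1 UMI count for each gene in each barcode called as a cell, from Cell Ranger 5.0.0 and GRCm38 per the labels. Barcodes with 200 to 9000 genes and at most 30% mitochondrial UMIs (9965 Ctrl, 6718 cKO) and at least 1000 UMIs were kept, which left out 1170 Ctrl and 1371 cKO barcodes of low depth. No doublet caller was run; cells with markers of 2 lineages (82 and 31) or with early and late granule genes (73 and 460) were not gated, nor were 303 and 131 cells without a match. Gates were shares of UMIs in marker lists, such as 2.5% primary granule genes for ProNeu-like, 3% secondary granule genes for PreNeu-like and imNeu-like, 2% late genes for mNeu-like cells and 0.15% cycling genes between PreNeu and imNeu. The thresholds were set after the distributions of the lists were seen, and Ifitm1 and Ltb were dropped from the HSPC list because neutrophils or lymphoid cells carried them. The members, the lists and the other genes were chosen with earlier results of these data known.

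UMIs were summed per class and library and divided by all UMIs of those cells (CPM). Ratios were taken for genes with at least 20 UMIs in the 2 sums, and called past 2-fold between stages and 1.5-fold between libraries; no test was run with 1 library per group. Cycling cells held at least 0.3% of UMIs in cycling genes, in place of any cycling UMI, since most deep cells hold 1. Named genes were the members, the 2 highest and 2 lowest of each list by mNeu over ProNeu, the 3 genes most correlated with each member, and Map4k4. Gene positions came from GENCODE on GRCm38 and promoters from RefSeq. Python 3.11.15, numpy 2.4.6, scipy 1.17.1 and pandas 2.3.3 were used, and the sums and intervals were tested on simulated data. Alternatives were other UMI and mitochondrial limits, stricter gates, other denominators and scalings, no low-count filter, and thinning to 1000 UMIs.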

Additional observations from a re-analysis of the deposited data

Results flagged for a closer look

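In CPM, Lmnb1 differed in direction between cell types in the comparison of libraries. Its log2 ratio of cKO over Ctrl was 0.38 in mNeu-like cells, against -0.60 in HSPC-like, -0.40 in GMP-like, -0.66 in ProNeu-like, -0.57 in PreNeu-like, -0.68 in imNeu-like, -0.29 in imNeu/mNeu, -0.27 in monocyte-like and -0.64 in erythroid progenitor-like cells. In UMIs per cell the ratio was negative only in HSPC-, ProNeu- and erythroid progenitor-like cells, at -0.30, -0.15 and -0.02. The difference was not tested, since each group is 1 library.

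Lmna also differed in direction, with log2 ratios of cKO over Ctrl of 1.64 in HSPC-like and 0.31 in erythroid progenitor-like cells and -1.53 in PreNeu-like cells. The first rests on 15 cKO UMIs in 4 cells and the last on 8 and 22 UMIs, and the difference was not tested.

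The barcodes under 1000 UMIs, which no comparison used, still held the members, at 1166.5 CPM in Ctrl and 1168 CPM in cKO for the 8 genes together, against 1053 and 826 CPM in the kept cells.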

How the results depend on the processing

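No paired analysis was possible because each group is 1 library. The ratios most dependent on the processing were those set against UMIs per cell. In mNeu over ProNeu, the log2 ratio without scaling was -1.43 for Lbr, -0.41 for Lmna and -1.22 for Syne2 in Ctrl, and -0.17 for Lbr, -0.83 for Lmnb1, -0.45 for Syne1 and -0.10 for Syne2 in cKO, all positive in CPM. Members at least 2-fold higher in mNeu-like cells then numbered 0 in both libraries, against 3 and 4 in CPM, and those lower numbered 7 in Ctrl and 3 in cKO. Ratios that had been positive but under 2-fold turned too, in Ctrl to -1.96 for Syne1, -2.63 for Lmnb1 and -2.65 for Sun2, and in cKO to -1.83 for Sun2. Under median-of-ratios scaling, 6 Ctrl members were higher, 1 cKO member was lower instead of 2, pairs of member and stage lower in cKO by 1.5-fold fell from 25 to 9, and pairs higher went from 1 to 3. In Ctrl 2 members were lower, instead of 1, with a floor of 2000 UMIs, with stricter gates, and with mitochondrial, ribosomal, haemoglobin and immunoglobulin genes out of the denominator. Leaving gate markers, S100a8 and S100a9 out of the denominator gave 1 lower member in cKO. Pairs higher in cKO were 0 with stricter gates and 2 with the mean of per-cell proportions, which also turned the cKO over Ctrl ratio of erythroid progenitor-like cells to 0.71 for Sun2 and 1.73 for Syne2. Under these alternatives the shares over all genes were not counted for the pairs, and the causes were not tested. All 119 stage ratios kept their direction with a floor of 500 UMIs or a mitochondrial limit of 10%, 107 under median-of-ratios scaling and 80 in UMIs per cell. Without the low-count filter these ratios are the same numbers by construction, so that setting is no check of their direction. Of 66 library ratios, 56 kept their direction under median-of-ratios scaling, and UMIs per cell was not among the alternatives counted for them. The members near 20 UMIs, Lmna in all neutrophil stages and Lmnb2 in mNeu-like cells, are limited by depth.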
